A study of Mus musculus with 73 samples.

Results

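Pou5f1_E081 is a candidate enhancer from the mouse Pou5f1 locus with a listed window of 450 bases. The data described here are the reporter combinations in which it stood beside an enhancer of another locus. All combinations with Pou5f1_E081 (E081 below) in either position and with a partner of a different locus, control sequences left out, were taken from the deposited table. They numbered 2893 of the 110180 combinations in the table, 69206 of which join 2 enhancers, held 49 of the 50 other-locus enhancers as partners, and covered 90.4% of the 3200 that 50 partners, both positions, both orientations of each fragment and 8 promoters allow. Nodal_E161 was in no combination with E081, and Nanog_E089 was in combination with it at 2 promoters only.

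The assay was a massively parallel reporter assay (MPRA), in which every plasmid carried 1 of 8 promoters, a barcoded GFP reporter and a tandem pair of fragments behind it. E14TG2a cells, a line of mouse embryonic stem cells (mESCs) grown in 2i+LIF medium, were transiently transfected with each promoter's library separately, and RNA was collected after 24 hours. Each library had 3 biological replicates, all in the same cell line. Controls were scrambled or randomly generated sequences. A control-control (CC) pair gave the baseline of a promoter, and an enhancer-control (EC) pair gave the activity of an enhancer by itself. On the plasmids the fragments lay close to the promoter and outside their chromatin context.

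The promoters came from 7 developmental genes and a housekeeping gene. Lefty1 encodes an antagonist of Nodal signalling, Fgf5 a growth factor of the primed state, and Tbx3, Sox2, Nanog, Klf2 and Otx2 encode transcription factors of pluripotent or early embryonic cells. Ap1m1 encodes a subunit of a clathrin adaptor and is broadly expressed. Pou5f1 itself encodes OCT4, the POU-domain factor that binds DNA with SOX2 and holds the pluripotency network together. The gene is known for a distal and a proximal enhancer upstream of it, of which the distal is used in naive pluripotent cells. Enhancers placed together on a plasmid may add their effects, multiply them, or reach a ceiling that the promoter or the reporter sets. Which of these a pair follows is read by setting its activity against expectations made from each enhancer by itself.

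E081 had been chosen by its measured activity with controls, so that activity and everything calculated from it are given as a description without a test. Its mean boost index (log2 of activity over the baseline, averaged over positions and 8 promoters) was 3.23. The next values were 3.05 for Klf2_E058 and 2.83 for Nanog_E073, the latter over 7 promoters, and then 2.79 for Sox2_E180.

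The listed window of E081 is chr17:35503887-35504336 (mm10), inside the non-coding RNA gene Gm32362. Its last base is 1696 bases before the annotated start of Pou5f1. Per the paper, primers were placed in the end parts of each window, so the tested fragments are shorter than their windows. The whole sequence of E081 is not printed here. It was amplified from the genome with the following primers, shown 5′ to 3′ because they mark its ends.
E081 forward: attgaatacagacaggactgctggg
E081 reverse: atgaatcttccgtttcctccactctg
The results below turn on a handful of partners, whose primers follow in the same form. Tbx3_E203 (chr5:119656667-119657116, inside the non-coding genes Tbx3os1 and Gm16064) and Otx2_E114 (chr14:48664703-48665152, inside Otx2) are shown as partners whose pairs stood above E081 alone.
Tbx3_E203 forward: ggatggctcaagaaggaagagttctatc
Tbx3_E203 reverse: aatgggtcactgggtcggtg
Otx2_E114 forward: tctccacagcgagcttagataataaac
Otx2_E114 reverse: aattgaccgttagatataaggctgtgc
Nanog_E073 (chr6:122702446-122702895) and Nanog_E074 (chr6:122702830-122703279) are shown because their listed windows overlap by 66 bases and they gave values on opposite sides of E081 alone. Neither window overlaps an annotated gene, and the bases shared by the amplified fragments are not known here.
Nanog_E073 forward: aattgttaacctgctggaatttccttc
Nanog_E073 reverse: gtcaaaggagtctgcttaggagac
Nanog_E074 forward: ccctgtaccaaacctttgtagaacttg
Nanog_E074 reverse: ggatacaaagcccagcaaactacc
Otx2_E114 reaches into the window before an annotated start of Otx2. The 43 bases of that window inside the listed coordinates of the fragment, chr14:48665110-48665152 on the minus strand (RefSeq, GRCm38.p6), hold the reverse primer and none of the motifs searched.
Otx2_E114, part before the start: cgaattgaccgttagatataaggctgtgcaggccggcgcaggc
For the promoters, RefSeq windows of 250 bases before a start lay wholly inside the listed coordinates of the Fgf5, Nanog and Klf2 fragments. They are shown because E081 pairs reached a median of 19.9-fold over baseline at Fgf5, 5.48-fold at Nanog and 4.57-fold at Klf2. Capitals mark matches on either strand. The Fgf5 window holds the SOX motif CTTTGT, which 16.5% of the 32851 windows in the table hold. The Nanog window holds the SOX motif CATTGT (10.7% of windows) and, apart from it, the KLF motif GGGCGTGG (4.79%). The Klf2 window holds none. The POU octamer in the forms ATGCAAAT and ATGCTAAT, the ESRRB motif AAGGTCA, the KLF motif GGGTGTGG, the STAT motif TTCCNGGAA and the TATA box TATAAA were also searched on both strands and are in none of the 3 windows.
Fgf5 promoter, chr5:98253934-98254183, plus strand: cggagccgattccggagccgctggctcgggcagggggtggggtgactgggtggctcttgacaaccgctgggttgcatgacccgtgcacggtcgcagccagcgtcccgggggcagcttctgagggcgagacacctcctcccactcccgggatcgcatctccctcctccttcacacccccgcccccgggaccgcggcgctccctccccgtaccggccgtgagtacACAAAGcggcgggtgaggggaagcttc
Nanog promoter, chr6:122707239-122707488, plus strand: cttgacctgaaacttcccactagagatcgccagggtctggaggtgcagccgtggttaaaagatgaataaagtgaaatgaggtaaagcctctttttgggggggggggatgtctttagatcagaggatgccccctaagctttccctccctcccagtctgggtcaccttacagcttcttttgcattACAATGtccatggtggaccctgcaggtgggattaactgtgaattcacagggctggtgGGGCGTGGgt
Klf2 promoter, chr8:72318812-72319061, plus strand: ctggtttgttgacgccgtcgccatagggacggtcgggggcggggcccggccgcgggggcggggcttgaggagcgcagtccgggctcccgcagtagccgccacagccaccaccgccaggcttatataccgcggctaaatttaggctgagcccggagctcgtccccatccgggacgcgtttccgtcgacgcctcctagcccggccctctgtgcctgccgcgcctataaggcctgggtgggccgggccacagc
The share of G and C was 70.8% for Fgf5, 52% for Nanog and 71.2% for Klf2, against a median of 52.4% over all windows.

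The libraries differed in quality. Between replicates, Pearson's r of log2 activity across the E081 pairs lay between 0.70 and 0.94 in 7 libraries and between 0.46 and 0.67 in the Fgf5 library. The Fgf5 baseline rested on 23 control-control combinations, against 219 to 477 in the others, and its log2 value had an SD of 0.46 over replicates. Boost indices and both expectations at Fgf5 carry that uncertainty, while ratios of pairs to E081 alone do not use the baseline. The table gives activities and no read or barcode counts, so depth per combination is unknown here.

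Pairs with E081 were frequent among the most active combinations at every promoter, and least so at Ap1m1. The 100 most active enhancer-enhancer combinations of a library held 35 to 68 with E081 in the 7 developmental libraries and 11 in the Ap1m1 library, whereas E081 was in 4.46% to 5.72% of all such combinations. Both counts include partners of any locus, those of Pou5f1 among them. The order of the promoters by median boost index was Lefty1, Tbx3, Sox2, Fgf5, Nanog, Otx2, Klf2 and Ap1m1. The median activity (normalised cDNA over plasmid counts) of the Lefty1 pairs was 2.89, 3.17 and 3.16 in replicates 1 to 3, which is a boost index of 5.16 ± 0.14 (SD, n = 3) or 35.7-fold over baseline. For Tbx3 it was 3.38, 3.46 and 3.15, with a boost index of 4.89 ± 0.36. For Sox2 it was 4.47, 4.19 and 4.09, with a boost index of 4.63 ± 0.08. These 3 promoters and Fgf5, with activities of 4.24, 4.14 and 4.27 and a boost index of 4.32 ± 0.45, formed the upper set, in which the replicates of each promoter overlapped those of its neighbours in the order. For Nanog the activities were 1.70, 1.91 and 1.73, with a boost index of 2.45 ± 0.26. Otx2 had 1.85, 1.90 and 2.03 and a boost index of 2.24 ± 0.25. Klf2 had 1.84, 1.89 and 1.71 and a boost index of 2.19 ± 0.14. Nanog, Otx2 and Klf2 overlapped in their replicates, and no replicate of them reached any replicate of the upper set. Ap1m1 pairs, at 1.103, 1.17 and 1.08, had the lowest boost index, 0.94 ± 0.17 or 1.91-fold.

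In the median pair, a second enhancer added little to E081. Against E081 with controls in the same position and library, 1831 of 2893 pairs (63.3%) had a higher activity. Of the 2848 pairs whose partner had been measured with controls, 2748 (96.5%) were more active than that partner by itself. E081 was the strongest enhancer by itself, and no such shares for other enhancers are given here, so nothing further is read from these 2 shares. The median gain over E081 alone, in log2, was 0.21 ± 0.054 (SD, n = 3) for Lefty1, 0.20 ± 0.079 for Tbx3, 0.18 ± 0.032 for Sox2 and 0.17 ± 0.008 for Fgf5. It was 0.009 ± 0.016 for Nanog, 0.030 ± 0.044 for Klf2, 0.047 ± 0.048 for Otx2 and 0.053 ± 0.028 for Ap1m1, so in these 4 libraries the median pair and E081 alone differed by less than 2 replicate SDs. The gain that adding the partner's own activity predicts was smaller in the upper set than in the other libraries, with medians of 0.12, 0.12, 0.13 and 0.046 in the upper set (Lefty1, Tbx3, Sox2, Fgf5) and 0.23, 0.22, 0.23 and 0.25 for Nanog, Klf2, Otx2 and Ap1m1.

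Under an additive expectation, the activities of both enhancers with controls are summed and the baseline is subtracted. Under a multiplicative expectation, their fold activations are multiplied. Both expectations could be made for 2848 pairs, and 45 pairs of 9 partners had none. The median log2 of observed over additive was between -0.020 ± 0.032 (Sox2) and 0.060 ± 0.021 (Fgf5) in the upper set, with 0.040 ± 0.069 for Tbx3. It was -0.25 ± 0.04 for Nanog, -0.22 ± 0.04 for Klf2, -0.20 ± 0.05 for Otx2 and -0.20 ± 0.01 for Ap1m1, below 0 in each of the 12 library replicates. Other-locus pairs without E081 had medians of 0.26 for Lefty1, 0.29 for Tbx3, 0.19 for Sox2, 0.61 for Fgf5 and between -0.034 and -0.006 for the remaining promoters. At Fgf5 their median log2 of observed over multiplicative was above 0 too, at 0.70. Per the paper, both expectations were too low for weakly active Fgf5 pairs, probably because that library had few control-control combinations. E081 pairs had the lower median at every promoter, a difference that was not tested because E081 was chosen for the activity the expectation contains. Other enhancers held fixed had lower values still. Averaged over libraries, E081 had rank 5 from the lowest of 58 enhancers, at -0.10. Below it were Nodal_E159 at -0.20, Klf2_E058 and Pou5f1_E084 at -0.17 each and Nanog_E074 at -0.12.

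Against the multiplicative expectation the E081 pairs were far lower. The median log2 of observed over multiplicative was lowest at Lefty1, at -1.48 ± 0.009 (SD, n = 3), followed by Sox2 at -1.40 ± 0.09 and Tbx3 at -1.32 ± 0.26. Nanog had -0.95 ± 0.09, Otx2 -0.74 ± 0.09 and Klf2 -0.71 ± 0.015, while Fgf5 had -0.57 ± 0.27 and Ap1m1 -0.37 ± 0.03. Of the 2848 pairs, 2569 (90.2%) lay below it and 2438 (85.6%) lay closer to the additive value. Among other-locus pairs without E081, 23.3% (Fgf5) to 83.2% (Otx2) per library lay below the multiplicative expectation. Closer to the additive value were 55.8% (Tbx3) to 69.8% (Otx2) of those pairs. Where the expectations differed by more than 0.5 in log2, the additive value was the closer in 86.8% to 95.8% of pairs in each of the 7 developmental libraries. For pairs without E081 this share was 63.4% at Tbx3, 67.6% at Lefty1, 71.3% at Fgf5 and 78.0% at Sox2. It was 91.2% at Nanog, 90.0% at Klf2 and 92.1% at Otx2, near the 93.8%, 92.7% and 92.8% of E081 pairs there. The activity of E081 enters both expectations, and these differences were not tested. At Ap1m1 no pair had expectations that far apart.

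Pairs were also called supra-additive or sub-additive where they lay beyond 1 propagated SD of the expectation, that is, the SDs of both enhancer-control sets and of the control-control set combined. Of 2816 pairs with an SD, 363 (12.9%) were supra-additive, beside 18.1% of all enhancer-enhancer combinations, and 737 (26.2%) were sub-additive, beside 8.0% of all. Within this limit lay 60.9%. Supra-additive pairs made up 22.0% at Lefty1 (30.7% of all combinations there), 25.9% at Tbx3 (34.9%), 18.1% at Sox2 (28.7%) and 15.9% at Fgf5 (39.2%). They made up 7.65% at Nanog (7.01%), 6.78% at Klf2 (6.21%), 6.25% at Otx2 (5.33%) and 1.62% at Ap1m1 (2.62%). Sub-additive pairs made up 18.2% at Lefty1 (6.0% of all combinations), 20.6% at Tbx3 (6.27%), 26.0% at Sox2 (8.09%) and 13.8% at Fgf5 (3.93%). They made up 38.5% at Nanog (13.2%), 36.9% at Klf2 (10.1%), 33.2% at Otx2 (11.0%) and 19.7% at Ap1m1 (4.43%). The high activity of E081 enters both the expectation and its SD, so nothing further is read from these shares.

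The activity of a pair with E081 hardly followed how strong the partner was by itself, except at Ap1m1. Partners spanned a wide range, for example from -0.10 to 4.92 in boost index at Lefty1 and from -0.44 to 2.04 at Otx2. The slope of pair boost on partner boost was 0.045 ± 0.017 (SD, n = 3) at Lefty1, -0.013 ± 0.029 at Tbx3, 0.020 ± 0.041 at Sox2, 0.025 ± 0.022 at Fgf5, -0.020 ± 0.053 at Nanog, -0.007 ± 0.065 at Klf2 and 0.038 ± 0.074 at Otx2. Additive expectations had slopes of 0.15 to 0.37 at these 7 promoters. At Ap1m1 the observed slope was 0.44 ± 0.092, near the 0.49 of the expectation. The mean slope over the 8 libraries was 0.066 and was not distinguishable from 0 (exact two-sided sign-flip permutation test over libraries, p = 0.117, 0.134 adjusted over the 8 contrasts calculated). That call depended on the processing. The slope was 0.084 without replicate 1, 0.092 with enhancer-control values of the same orientation only and 0.078 for combinations measured in all 8 libraries, with adjusted exact permutation p-values of 0.00893, 0.00893 and 0.0357. Without Ap1m1 it was 0.013 (exact sign-flip permutation p = 0.234).

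Among other-locus pairs without E081, the same slope was 0.57 to 0.76. The slope of E081 pairs was lower in 8 of 8 libraries, by -0.63 to -0.33 and on average by -0.55. No test is given for this difference, because a strong fixed enhancer flattens the slope under additivity too. The additive expectations alone differ by -0.63 to -0.26 between the same sets. The observed difference was larger in size than the expected one in 7 libraries and smaller at Fgf5, at -0.55 against -0.63, and the excess was not tested. Other strong enhancers had similarly flat slopes when held fixed. The mean over the 7 developmental libraries was 0.013 for E081, 0.033 for Sox2_E180, 0.056 for Klf2_E058, 0.068 for Nodal_E159 and 0.15 for Nanog_E073, and at Ap1m1 these 4 others had 0.67, 0.62, 0.59 and 0.64. E081 had the lowest mean slope of 58 enhancers, and all were ranked on the same libraries without a test.

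Partners ranked by strength at each promoter were divided into 3 classes of equal size. With the weakest class, the median gain at Nanog was 0.028 where 0.12 was expected, and at Lefty1 0.086 where 0.028 was expected. With the strongest class, the gain at Nanog was -0.10 where 0.51 was expected, at Klf2 -0.016 where 0.46 was expected, and at Otx2 0.018 where 0.51 was expected. At Lefty1 the strongest class gave 0.21 where 0.41 was expected, and at Sox2 0.21 where 0.62 was expected. At Nanog, Klf2 and Otx2 a partner of the strongest class thus left the pair near E081 alone. Only at Ap1m1 did the gain grow across the classes, from -0.12 over 0.021 to 0.29, with expected gains of 0.11, 0.27 and 0.47.

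Outside Ap1m1, which partner stood beside E081 mattered in a way that its strength did not show. The counts that follow include Ap1m1. Of the 48 partners measured with at least 6 promoters, 18 (37.5%) gave a median activity above E081 alone at every promoter, 3 (6.25%) gave a lower activity at every promoter, and 27 were mixed. Over all enhancers taken in turn as the fixed enhancer, these shares were 74.1% and 1.14% of 2461 sets. With other strong enhancers fixed, 14 partners were above and 7 below of 53 for Klf2_E058, and 16 and 4 of 51 for Nodal_E159. Nanog_E073 had 16 and 1 of 47, Sox2_E180 25 and 2 of 51, Lefty1_E085 36 and 2 of 50 and Otx2_E111 36 and 1 of 50. 11 partners were above E081 in every library replicate: Lefty1_E086, Lefty1_E094, Lefty1_E095, Lefty1_E096, Nodal_E157, Nodal_E162, Otx2_E114, Otx2_E115, Tbx3_E203, Tbx3_E206 and Tbx3_E208. That list, and Lefty1_E094, Lefty1_E087 and Fgf5_E037 below, were chosen after the values were seen.

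Tbx3_E203 and Lefty1_E094 had the largest mean gains, which differed by less than the spread between replicates. That of Tbx3_E203 was 0.62 ± 0.05 in log2 over 8 promoters (SD, n = 3 replicates), or 1.54-fold, although its own mean boost index was 1.35. At Lefty1 the pairs of E081 with Tbx3_E203 had median activities of 4.54, 4.52 and 4.61 in replicates 1 to 3, where addition gives 2.93. At Ap1m1 they had 1.73, 2.03 and 1.65, where addition gives 1.60. All 24 library replicates were above E081 alone, and the smallest gain of a library was 0.43, at Fgf5. Lefty1_E094, just upstream of the Lefty1 promoter, had 0.62 ± 0.015 and a mean boost index of 2.19. At Fgf5 its pairs reached 6.02, 5.78 and 6.04, the highest partner median with E081 in any library. The log2 of observed over additive for Lefty1_E094 was 0.44 at Tbx3, 0.41 at Fgf5, 0.39 at Lefty1 and 0.17 at Sox2, and lay between -0.12 and 0.008 at Nanog, Klf2, Otx2 and Ap1m1.

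Above the additive expectation stood, on average over promoters, Otx2_E114 at 0.38 ± 0.03 (SD, n = 3), Otx2_E115 at 0.36 ± 0.03, Tbx3_E203 at 0.35 ± 0.05, Lefty1_E095 at 0.33 ± 0.04 and Lefty1_E086 at 0.18 ± 0.04. Otx2_E114 and Otx2_E115 both lie within the Otx2 gene and had modest mean boost indices of 0.73 and 0.75. At Nanog, pairs with Otx2_E114 had activities of 2.72, 2.80 and 2.77, where addition gives 1.92, and at Ap1m1 1.73, 1.89 and 1.67, where it gives 1.29. The gain of Otx2_E114 was smallest at Sox2, at 0.16 ± 0.02, and its replicates there were all above E081 alone. Nodal_E157 and Nodal_E162 were nearly inactive by themselves, with mean boost indices of 0.081 and 0.13. Their mean gains were 0.17 ± 0.07 and 0.20 ± 0.06, above E081 in 24 of 24 library replicates each. Whether these gains exceed the spread between single control sequences beside E081 was not tested. Nodal_E156 and Nodal_E160 gave 0.23 ± 0.01 and 0.12 ± 0.03, both above in 22 of 24.

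The opposite held for several of the strongest enhancers. The lowest mean log2 of observed over additive was -0.89 ± 0.13 (SD, n = 3) for Nodal_E159, then -0.85 ± 0.13 for Sox2_E180, -0.82 ± 0.075 for Nanog_E074, -0.81 ± 0.08 for Klf2_E058 and -0.56 ± 0.12 for Nanog_E090, and each of these was below 0 at 8 of 8 promoters. These enhancers had mean boost indices of 2.73, 2.84, 2.56, 3.05 and 2.47 for the positions they took beside E081. Sox2_E180 lies downstream of Sox2, and Klf2_E058 and Nanog_E074 upstream of their genes.

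With Nanog_E074 the pair was less active than E081 with a control sequence at 8 of 8 promoters, by a mean of -0.27 ± 0.11. At Nanog its pairs had activities of 1.102, 1.44 and 1.16, where addition gives 2.56 and Nanog_E074 alone had 1.12. At Sox2 they had 3.47, 3.57 and 3.06, where addition gives 6.42. The listed window of Nanog_E073 shares 66 bases with that of Nanog_E074, and its boost index of 2.83 is similar. Nanog_E073 instead gave a mean gain of 0.25 ± 0.04, above E081 at 8 of 8 promoters. At Nanog its pairs had 1.79, 2.08 and 1.78, with no overlap of the replicates of the partners. Nanog_E073 pairs were still below additive, at -0.49 ± 0.05 over the 7 promoters with an expectation.

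Klf2_E058, the enhancer nearest to E081 in strength, split by promoter. Beside E081 it gave gains of 0.22 ± 0.11 at Lefty1, 0.27 ± 0.12 at Sox2 and 0.16 ± 0.07 at Fgf5, and 0.046 ± 0.19 at Tbx3. It gave -0.26 ± 0.12 at Nanog, -0.20 ± 0.10 at Klf2, -0.13 ± 0.09 at Otx2 and -0.34 ± 0.025 at Ap1m1. Even at Sox2, where pairs had activities of 5.14, 4.53 and 4.14, addition gives 7.55.

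A lower activity than E081 alone was also seen with partners that had almost no activity of their own. Otx2_E110, with a mean boost index of -0.034, gave a mean of -0.25 ± 0.10, and it was below E081 at 7 of 8 promoters. At Lefty1 its pairs had 2.03, 1.98 and 2.18, where addition gives 2.68. At Ap1m1 it stood above, at 0.13 ± 0.08. Besides Nanog_E074, the partners below E081 at every promoter were Lefty1_E087, at -0.23 ± 0.05, and Fgf5_E037, at -0.22 ± 0.04, with boost indices of 0.20 and 0.55. Lefty1_E087 was below in 24 of 24 library replicates. E081 alone is a median over control combinations, which varied among themselves. The SD over them at Lefty1 was 0.87 around 2.48 in position 1 and 0.50 around 2.85 in position 2. At Nanog it was 0.55 around 1.64 and 0.35 around 1.89. Replicate SDs do not measure that spread. Whether nearly inactive partners, below or above E081 alone, lie outside the spread of control sequences was not tested.

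These partner values resembled those beside other strong enhancers, whose own activity with controls was measured in separate combinations. Tbx3_E203 gave mean gains of 0.58 beside Klf2_E058, 0.56 beside Nanog_E073, 0.53 beside Sox2_E180 and 0.53 beside Nodal_E159. Otx2_E114 gave 0.57, 0.45, 0.54 and 0.56 beside the same enhancers, and Lefty1_E094 0.62, 0.71, 0.62 and 0.75. For these 3 partners the gain was above 0 at every promoter measured. Nanog_E074 gave -0.44 beside Klf2_E058, -0.36 beside Sox2_E180 and -0.32 beside Nodal_E159. Otx2_E110 gave -0.22, -0.33, -0.062 and -0.37. Fgf5_E037 differed in direction from its -0.22 with E081, at 0.033, 0.15, 0.11 and 0.16, and that difference was not tested.

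E081 was next compared with Klf2_E058 and Nanog_E073 in combinations that matched in promoter, partner, positions and orientations. The comparison does not use activities with controls, but E081 had been chosen by those activities in the same libraries. Its mean boost index was the highest there and those of the compared enhancers came next, that of Nanog_E073 over 7 promoters only, so no test is given. E081 pairs were more active than Klf2_E058 pairs in 8 of 8 libraries, by a mean of 0.23 in log2 (SD over libraries 0.09). The median matched difference was 0.21 to 0.29 in 7 libraries, over 222 to 319 matched combinations each. At Sox2 it was 0.027 ± 0.054 (SD, n = 3), with replicate 1 at -0.039. E081 pairs were also more active than Nanog_E073 pairs in 8 of 8 libraries, by a mean of 0.26 (SD over libraries 0.13). The range was from 0.091 ± 0.036 at Ap1m1 to 0.49 ± 0.16 at Fgf5, the latter over 94 matched combinations. With controls, the mean boost of E081 over both positions exceeded that of Klf2_E058 at 7 promoters and was lower at Sox2, at 4.45 against 4.53.

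Pairs were more active with E081 in the second position and in minus orientation. Matched on partner and orientations, pairs with E081 in position 1 were below those with it in position 2 in 8 of 8 libraries, by a mean of -0.14 in log2 (SD over libraries 0.06, range -0.21 to -0.066, exact two-sided sign-flip permutation p = 0.00781, the smallest that 8 libraries allow, adjusted 0.0104). The partner changes position along with E081, so this difference holds the position effects of both. Plus orientation was below minus in 8 of 8 libraries, by a mean of -0.25 (SD 0.07, range -0.34 to -0.16, exact sign-flip permutation p = 0.00781, adjusted 0.0104). Of the 4 arrangements, minus in position 2 had the highest and plus in position 1 the lowest median boost in 8 of 8 libraries, with means over libraries of 3.58 and 3.14. With a control in the other position the same arrangements had 3.47 and 2.97. The preference for minus was thus seen without a second enhancer too, at a mean of 0.29 in position 1 and 0.24 in position 2. Measured the same way, the absolute effect of orientation had a median of 0.18 and that of position 0.10 over 58 enhancers, and E081 ranked 16 and 22 by size.

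Own-locus partners stood above the others at some promoters and below them at others. Values against the additive expectation contain the activity E081 was chosen by, so these differences are given without a test. In the 7 libraries whose own locus gave enhancers, the median log2 of observed over additive of own-locus partners minus that of the others was 0.047 ± 0.029 (SD, n = 3) at Lefty1, 0.25 ± 0.05 at Tbx3, 0.10 ± 0.10 at Fgf5, 0.15 ± 0.02 at Otx2, -0.23 ± 0.07 at Sox2, -0.36 ± 0.01 at Nanog and -0.28 ± 0.05 at Klf2. The mean was -0.047 with an SD of 0.24 over libraries, and it was 0.0054 without the Nanog library. Other-locus partners lay lower against the additive expectation than Pou5f1-locus partners of E081 did, in 8 of 8 libraries, by a mean of -0.091 (SD 0.034, range -0.13 to -0.027). Pou5f1-locus partners were also weaker by themselves, with mean boost indices of 0.13 to 1.16 where other-locus partners reached 3.05, and the part of partner strength in this difference was not tested. Activity itself was close, with median boost indices of 5.16 and 5.11 at Lefty1 and 2.45 and 2.43 at Nanog. At Tbx3 replicate 1 had the opposite sign, at 0.026.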

How the data were processed

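The series comprised 73 sequencing samples of 8 promoter libraries, of which 48 were cDNA (3 biological replicates of each library, each in 2 sequencing runs), 16 plasmid DNA and 9 barcode-to-fragment links. Per the labels and methods, the authors matched barcodes to fragment pairs with Bowtie2, counted barcodes in cDNA and plasmid DNA, scaled each sample to its total, took the cDNA to plasmid ratio per barcode and averaged ratios over the barcodes of a combination after minimum requirements on barcodes and counts. The deposited table holds these ratios per replicate and a baseline ratio per library. The authors' mean activity, boost indices and expectations in it were not used. Combinations with few barcodes were removed before deposit, so missing combinations are not inactive ones.

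From the ratios, the geometric mean over 3 replicates was taken. Baselines, enhancer-control medians per position, additive and multiplicative expectations and propagated SDs were recalculated from it, and again within each replicate for the SD. The boost index of a partner is the median, per library, of its enhancer-control values for the positions it took beside E081. Combinations with an activity of 0 were left out of medians, and none was among the E081 pairs. Contrasts were summarised as a median or least-squares slope per library and tested with a two-sided exact sign-flip permutation over 8 libraries (7 for own-locus partners), with Benjamini-Hochberg adjustment over the 8 tests at 0.05. The p-values of both matched contrasts are not given, since E081 was chosen by its activity with controls in the same libraries. Those of both contrasts of observed over additive are not given, since the activity E081 was chosen by enters them. That of the slope difference is not given, since a strong fixed enhancer flattens the slope under additivity too. The libraries are different promoters with the same fragments, so the tests measure how alike the promoters are. Members, partner lists and tests were chosen with earlier results of these data known. The partners named were the 5 highest and 5 lowest in log2 of observed over additive (at least 6 promoters), the 3 highest and 3 lowest in boost index, and Klf2_E058, Nanog_E073, Nanog_E074, Tbx3_E203, Nodal_E156, Nodal_E160, Otx2_E114, Otx2_E110 and Nodal_E157. Others were named after their values were seen. Motif letters were searched as exact strings in RefSeq start windows only, and the exact POU-SOX composite letters were in none of them. Sites that differ from the strings by a letter were not marked, among them the octamer-like letters beside the SOX match of the Nanog window. Coordinates are mm10, converted to start counting at 1. The calculations were tested on simulated data and used Python 3.11, pandas, numpy and scipy.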

Additional observations from a re-analysis of the deposited data

Results flagged for a closer look

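Several values stood apart from the rest of their set, or had opposite signs in different libraries. Sets of 7 or 8 library values were looked at 40 times for a library far from the others, and 5 sets held one. Chance marks about 1 in 20 such sets, and some of these sets share data. The slope of pair boost on partner boost was 0.44 at Ap1m1, far above the other libraries, and its difference from pairs without E081 was the least negative there, at -0.33. The matched difference between E081 and Klf2_E058 pairs was 0.027 at Sox2, the lowest of 8, and Sox2 was also the promoter where Klf2_E058 with controls exceeded E081.

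Otx2_E110 beside E081 was 0.13 above E081 alone at Ap1m1, and 0.083 above the additive expectation, far from the other 7 libraries. All 3 replicates were above E081 at Ap1m1 and all were below it in 6 other libraries, down to -0.39 at Fgf5. Klf2_E058 beside E081 was above in every replicate of 3 libraries, up to 0.27 at Sox2, and below in every replicate of 4, down to -0.34 at Ap1m1. Nanog_E090 was above in every replicate of 2 libraries, with 0.17 at Lefty1, and below in every replicate of 2, with -0.31 at Nanog. These differences between libraries were not tested.

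Own-locus partners minus the others had the same sign in all replicates of 6 libraries, with 0.047 at Lefty1, 0.25 at Tbx3 and 0.15 at Otx2 against -0.23 at Sox2, -0.36 at Nanog and -0.28 at Klf2. The difference between those sets of promoters was not tested. Strong enhancers such as Nanog_E073, Nanog_E074, Klf2_E058 and Sox2_E180 are among the own-locus partners of the latter, and the part of partner strength in this contrast was not tested.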

How the results depend on the processing

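The direction and call of the contrasts of position and of orientation were the same under the 15 alternatives run for each, with adjusted p-values (exact sign-flip permutation) between 0.00893 and 0.0208. Of the contrasts given without a test, that with Klf2_E058 lay between 0.22 and 0.23 and that with Nanog_E073 between 0.23 and 0.29 under the alternatives. The slope difference from other pairs lay between -0.59 and -0.52 and the Pou5f1-locus difference between -0.10 and -0.072. The own-locus difference lay between -0.072 and -0.041, but was 0.0054 without the Nanog library and -0.0081 without the Klf2 library. The slope of E081 pairs on partner boost passed the threshold, with the same sign, when replicate 1 was left out (0.050 to 0.084 over the replicates left out, exact permutation, adjusted p = 0.00893 without replicate 1), with enhancer-control medians of the same orientation only (0.092, adjusted p = 0.00893) and for combinations measured in all 8 libraries (0.078, adjusted p = 0.0357). The latter and leaving out a library other than Fgf5 were chosen after seeing the data. Averaged over libraries, the boost index was 3.35 and moved to 3.23 with activities of 0 kept, 3.21 without Fgf5 and 3.70 without Ap1m1. The log2 of observed over additive was -0.10 and moved to -0.065 with means of log2 activities for single enhancers, and lay between -0.10 and -0.070 when a replicate was left out. At Fgf5 alone it changed sign, from 0.060 to -0.0020, with arithmetic means of replicates. The log2 of observed over multiplicative was -0.94 and moved to -1.01 with activities of 0 kept and -1.02 without Ap1m1, and lay between -0.98 and -0.87 when a replicate was left out. The supra-additive share of 12.9% moved to 15.2% with means of log2 activities, 10.1% with pooled positions, 11.0% with the same orientation only and 14.6% without Ap1m1. At a limit of 2 propagated SD it was 2.41%, and the sub-additive share of 26.2% was 8.31%. Same-numbered replicates of different libraries deviated together on average but not in every pair (mean correlation 0.25, lowest -0.074, 84 pairs), so the numbers were not taken as pairs. With the replicate block no call changed: the contrasts with Klf2_E058 and Nanog_E073 were 0.22 and 0.26, position -0.14, orientation -0.25, the slope 0.063, its difference from other pairs -0.55, own-locus -0.063 and Pou5f1-locus -0.091. Depth per combination was not known, and Fgf5 had the fewest control combinations.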

Other observations

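Partners that gave gains beside E081 at the developmental promoters were often those that activated the housekeeping promoter. This was noticed after the values were seen and is given without a test. Over 48 partners, the gain over E081 averaged over the 7 developmental libraries had a Pearson's r of 0.64 and a Spearman's rho of 0.72 with the partner's boost index at Ap1m1. With the partner's mean boost index at the same 7 promoters, r was -0.043 and rho 0.060. Within each developmental library, r with the Ap1m1 boost was 0.50 to 0.70 over 44 to 48 partners, and r with the boost at that promoter itself was -0.13 to 0.21. The points share their fragments, but the boost at Ap1m1 and the gain come from separate libraries, whereas the boost at the promoter itself comes from the same library as the gain.

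Of the 16 partners with the highest boost at Ap1m1, 15 had a gain above 0, with a median of 0.25, and of the 16 with the lowest boost 8 did, with a median of 0.006. Lefty1_E094 and Tbx3_E203 ranked 2 and 3 of 48 by boost at Ap1m1, and 1 and 2 by gain, while they ranked 10 and 19 by mean boost at the 7 promoters. Klf2_E046 ranked 1 by boost at Ap1m1 and 11 by gain. Nanog_E074 ranked 7 by mean boost at the 7 promoters, 40 by boost at Ap1m1 and 47 by gain. Some partners departed from the pattern. Nanog_E090 had rank 5 at Ap1m1 and a gain of -0.0095. Klf2_E058 ranked 17 at Ap1m1 and 35 by gain, and Fgf5_E037 ranked 24 and 46. Base composition and transcription factor motifs of the partner fragments were not analysed here.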
